A study of Mus musculus with 8 samples.

Results

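Chemokines are small secreted proteins that guide the movement of leukocytes through receptors on the cell surface. The chemokine ligands analyzed here were the protein-coding mouse genes with a symbol starting with Ccl or Cxcl followed by a digit, together with Xcl1 and Cx3cl1. Of the 51789 genes in the deposited table, 37 met this rule, 30 had enough counts to be tested, and 7 were too low. Cxcl11, annotated as a pseudogene in the strain of the reference genome, and the pseudogenes Ccl19-ps1 and Ccl19-ps3 were left out by the rule, as were Pf4 and Ppbp, which encode platelet chemokines under other symbols.

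Most chemokines are produced on demand in inflamed tissue, by epithelial cells, fibroblasts, endothelium, macrophages or dendritic cells. Others are homeostatic and are made constantly, such as Cxcl13, Ccl19 and Ccl21a, which position B cells, T cells and dendritic cells in lymphoid tissue. The mouse mammary fat pad holds a lymph node, so RNA of a whole gland can carry both kinds.

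RNA was measured in whole mammary glands of female C57BL/6 mice, 6 weeks after small extracellular vesicles (sEVs) were injected into the gland. AT3, a mouse mammary tumor line with metastatic behavior, released the sEVs while kept in normoxia (sEVNORM, 3 glands) or hypoxia (sEVHYP, 2 glands), and control glands received material isolated the same way from non-conditioned medium (sEVCTRL, 3 glands). The sEVs of a single cell line were used in these libraries, and the 8 libraries held 18194996 to 24622569 counts. The study lists its C57BL/6 stock as albino and names no knockout, transgene or further treatment for the mice of these libraries. Levels are given as CPM, which sets each count against the size of its library after TMM scaling, and per kilobase of exon where genes are compared with each other. In whole tissue, fewer cells of a type and less RNA per cell cannot be told apart.

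The glands differed in tissue makeup within each group. The summed level of 8 skeletal muscle markers ran from 9.80 CPM in sEVNORM replicate 2 to 10834 CPM in sEVHYP replicate 2, and that of 9 B cell markers from 799.5 CPM in sEVHYP replicate 2 to 2748 CPM in sEVNORM replicate 2. Keratinocyte markers summed to 72.4 CPM in sEVNORM replicate 3 and to 8.59 to 13.1 CPM elsewhere, with Krt2 at 0 counts in every library. Luminal and basal epithelial markers and white adipocyte markers were detected in every gland. The part of these differences in the chemokine values was not tested, beyond the fits with a B cell or a muscle term given beside the calls they change.

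The main difference among the chemokine ligands was between the glands that had received sEVs. Ccl22, a dendritic cell and macrophage chemokine that attracts CCR4-bearing T helper 2 and regulatory T cells, was higher with sEVHYP than with sEVNORM, by 1.86-fold. Its neighbour on chromosome 8, Ccl17, which signals through the same receptor, was 2.05 times higher, without passing the threshold. Xcl1, a lymphocyte chemokine that attracts cross-presenting dendritic cells, was 1.47 times higher with sEVNORM than with sEVCTRL. The ligands as a whole took 0.167% to 0.194% of the counts with sEVCTRL and 0.168% to 0.202% with sEVHYP. With sEVNORM they took 0.182% to 0.256%, with replicates 1 and 2 above every gland of the other groups. Their summed level was 1833 ± 147 CPM (SD, n = 3) with sEVCTRL, 2278 ± 421 CPM (SD, n = 3) with sEVNORM and 1870 ± 208 CPM (SD, n = 2) with sEVHYP, and the ranges of the groups overlapped.

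Counts of all genes were fitted with edgeR's quasi-likelihood test, and a gene was called at an unadjusted P under 0.05, the threshold of the study. Between sEVHYP and sEVCTRL, 0 of the 30 ligands were called, against 2.45% of all 17858 genes tested. DESeq2 called 0 ligands in this comparison when fitted on all 8 libraries, beside 502 of 27208 genes. Fitted on the groups compared, it called 1 ligand, beside 387 of 25790 genes. Between sEVHYP and sEVNORM 1 ligand was called, against 3.95% of all genes, and between sEVNORM and sEVCTRL 1 ligand, against 1.62%. These shares are close to the background, so that a count of 1 in 30 says nothing about the family. After Benjamini-Hochberg adjustment over all genes, edgeR's quasi-likelihood test left 0 ligands in each comparison, and the adjusted P of every tested ligand was 1. Over glands, an exact two-sided permutation test cannot give less than P = 0.2 for 2 against 3 glands or P = 0.1 for 3 against 3. The first of these floors was reached for sEVHYP against sEVNORM by Ccl22, Ccl17, Ccl21a and Xcl1 and against sEVCTRL by Ccl3, Ccl6 and Ccl24, and the second by Ccl3 and Xcl1. Unadjusted P values are from edgeR on all 8 libraries unless another fit is named.

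Few ligands separated the groups completely. For sEVHYP and sEVCTRL, 3 ligands did not overlap (Ccl3, Ccl6 and Ccl24, all higher), where 12.8% of all genes tested did not. For sEVHYP and sEVNORM, 4 ligands did not overlap (Ccl17 and Ccl22 higher, Ccl21a and Xcl1 lower), beside 22.8% of all genes. For sEVNORM and sEVCTRL there were 2 (Ccl3 and Xcl1, both higher), beside 4.86%. The median log2 fold change of the 30 ligands was 0.04 for sEVHYP against sEVCTRL, -0.07 for sEVHYP against sEVNORM and 0.11 for sEVNORM against sEVCTRL. Over all genes tested these medians were -0.02, -0.02 and -0.00. Of the ligands, 21 had a higher and 9 a lower estimate with sEVNORM than with sEVCTRL, and 11 a higher and 19 a lower estimate with sEVHYP than with sEVNORM. The comparisons share the libraries of each group.

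**Figure D1:**
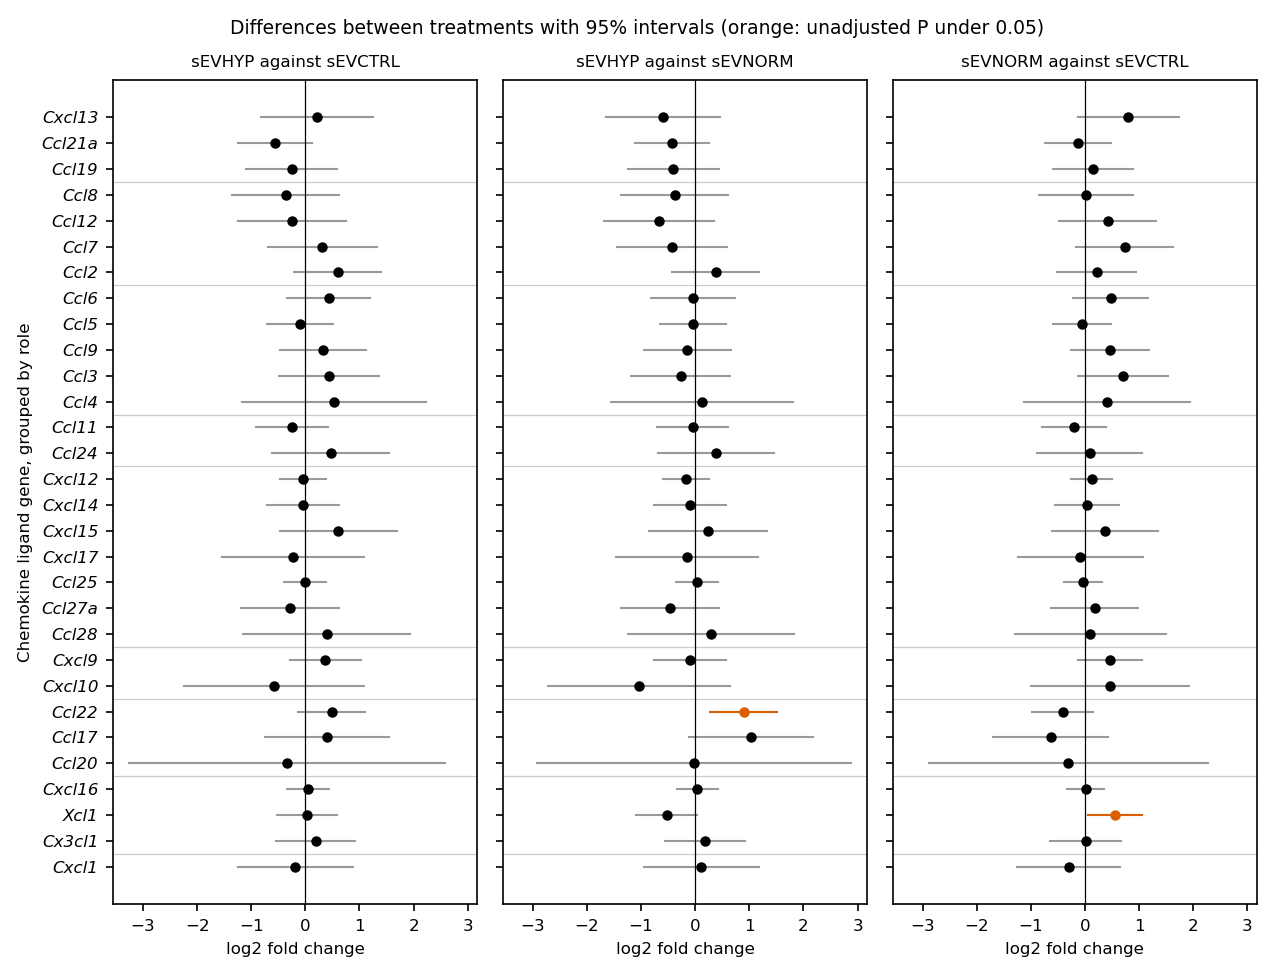
Log2 fold change (horizontal axis) of the 30 tested chemokine ligands (vertical axis, grouped by role) in the 3 comparisons, with 95% intervals from edgeR; orange marks an unadjusted P under 0.05. Ccl22 is marked for sEVHYP against sEVNORM and Xcl1 for sEVNORM against sEVCTRL, and no ligand is marked for sEVHYP against sEVCTRL.

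Ccl22 and Ccl17 lie in one cluster with Cx3cl1. On GRCm38, Ccl22 (ENSMUSG00000031779) spans 94745590 to 94751699 of chromosome 8, Cx3cl1 spans 94772009 to 94782427 and Ccl17 (ENSMUSG00000031780) spans 94810453 to 94812036, all on the plus strand. Ccl22 stood at 39.5 and 40.4 CPM in the 2 sEVHYP glands, and at 18.9, 25.9 and 19.7 CPM in the 3 sEVNORM glands. The sEVCTRL glands held 22.9, 22.3 and 40.5 CPM. Both sEVHYP glands therefore lay above every sEVNORM gland, while 1 of the 3 control glands was as high as they were. The log2 fold change of sEVHYP against sEVNORM was 0.90 (SE 0.27, unadjusted P of 0.00964), with a 95% interval of 0.28 to 1.51. It kept its direction and stayed under an unadjusted P of 0.05 in each of the 18 alternative fits, with unadjusted P of 5.82e-05 to 0.0393. Among them was DESeq2 on only these groups, where its adjusted P was 0.0190, the 1 ligand to pass after adjustment. Against sEVCTRL the log2 fold change was 0.48 (SE 0.27, unadjusted P of 0.112). It was 0.82 (unadjusted P of 0.00339) without sEVCTRL replicate 3, the high control gland. Without sEVCTRL replicate 1 it was 0.34 (unadjusted P of 0.281), and without sEVCTRL replicate 2 it was also 0.34 (unadjusted P of 0.264).

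Ccl17 rested on low counts, 18 to 55 per library. It stood at 2.52 and 1.87 CPM with sEVHYP, and at 0.845, 1.24 and 1.14 CPM with sEVNORM. The control glands held 1.47, 0.821 and 2.74 CPM. As for Ccl22, both sEVHYP glands were above the sEVNORM glands, and sEVCTRL replicate 3 was the highest library of all. For sEVHYP against sEVNORM the log2 fold change was 1.03 (SE 0.51), and the unadjusted P was 0.0723. Fitted on only the groups compared, the unadjusted P was 0.0286 with edgeR and 0.0366 with DESeq2, and over the 18 alternatives it reached 0.266, without sEVHYP replicate 1, where the log2 fold change was 0.80. Cx3cl1, the membrane-anchored ligand of CX3CR1 that lies between them, ran from 5.05 to 9.25 CPM with no separation of the groups.

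Ccr4, which encodes the receptor of both chemokines, was at 3.85 and 2.68 CPM with sEVHYP and at 1.53 to 3.19 CPM with sEVNORM. Its log2 fold change was 0.42 (SE 0.44). The 7 dendritic cell markers summed to 145.5 to 199 CPM with sEVHYP, 193 to 301 CPM with sEVNORM and 153 to 233 CPM with sEVCTRL. Of these markers, 6 had a lower and 1 a higher estimate with sEVHYP than with sEVNORM, and Itgax and Siglech passed the threshold, both lower. Of the 10 macrophage markers, 9 had a lower estimate in the same comparison, and Mertk passed the threshold.

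The RefSeq promoters of the members that carry these differences are shown as the 250 bases before the RefSeq start on GRCm38.p6, written on the strand of the gene. This start lies inside the gene span given in this report by 94 bases for Ccl22 and by 5 bases for Xcl1, so their windows hold that many bases of the gene. Capitals mark matches, on either strand, to the NF-kB consensus, to GAAANNGAA (the core of interferon regulatory factor sites) and to TTCNNNGAA (the core of STAT sites). Cxcl10, a textbook target of interferon, is shown for contrast.
Ccl22, chr8:94745434-94745683, plus strand: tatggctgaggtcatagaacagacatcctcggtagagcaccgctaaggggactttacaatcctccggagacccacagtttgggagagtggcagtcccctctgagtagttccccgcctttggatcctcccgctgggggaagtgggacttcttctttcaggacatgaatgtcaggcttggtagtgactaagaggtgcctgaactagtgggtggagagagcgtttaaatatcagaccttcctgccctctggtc
Ccl17, chr8:94810203-94810452, plus strand: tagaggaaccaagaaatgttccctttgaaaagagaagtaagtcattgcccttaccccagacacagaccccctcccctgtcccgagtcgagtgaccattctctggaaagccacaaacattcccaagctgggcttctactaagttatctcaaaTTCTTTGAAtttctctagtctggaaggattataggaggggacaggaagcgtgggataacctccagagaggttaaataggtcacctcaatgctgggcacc
Xcl1, chr1:164935523-164935772, minus strand: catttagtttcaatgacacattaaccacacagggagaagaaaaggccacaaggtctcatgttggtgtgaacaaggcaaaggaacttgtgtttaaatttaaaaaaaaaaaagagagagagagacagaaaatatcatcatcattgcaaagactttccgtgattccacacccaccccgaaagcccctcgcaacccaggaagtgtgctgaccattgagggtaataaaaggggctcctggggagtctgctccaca
Cxcl10, chr5:92348890-92349139, minus strand: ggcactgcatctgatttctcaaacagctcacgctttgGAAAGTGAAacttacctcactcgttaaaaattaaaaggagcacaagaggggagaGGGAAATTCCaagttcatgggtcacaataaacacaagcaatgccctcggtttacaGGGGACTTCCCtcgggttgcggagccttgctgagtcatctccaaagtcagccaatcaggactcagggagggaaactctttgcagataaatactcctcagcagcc

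The Ccl22 and Xcl1 windows held no match, and the Ccl17 window held 1 match to TTCNNNGAA. Cxcl10 held 3 matches to the NF-kB consensus, of which 2 overlap, and 1 to GAAANNGAA. Of the 37 ligands, 25 had a promoter in the table with a start within 1000 bases of the annotated gene start. The NF-kB consensus was found in 6 of these 25 windows and in 7.25% of all 32851 windows of the same length. GAAANNGAA was found in 5 of 25 and 7.13% of all, and TTCNNNGAA in 2 of 25 and 7.02%. A match is a run of letters, no match says only that these letters are not in the window, and no binding was measured.

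Xcl1 (ENSMUSG00000026573, chromosome 1, 164931644 to 164935527, minus strand) encodes lymphotactin, made by natural killer cells and CD8 T cells. It stood at 5.99, 6.74 and 6.43 CPM in the sEVNORM glands. It stood at 4.16, 3.785 and 5.09 CPM in the sEVCTRL glands and at 4.31 and 4.55 CPM in the sEVHYP glands. Every sEVNORM gland was above every other gland. The log2 fold change of sEVNORM against sEVCTRL was 0.56 (SE 0.22, unadjusted P of 0.0317). The call was not stable, with unadjusted P of 0.0167 to 0.0886 over the 18 alternatives, of which 7 kept it under 0.05. Leaving out any one of 6 libraries ended it, each sEVNORM gland among them, and with the skeletal muscle marker level in the model the log2 fold change was 0.51 (unadjusted P of 0.066). Between sEVHYP and sEVNORM the log2 fold change was -0.53 (SE 0.25). Xcr1, which encodes its receptor, was at 15.1, 34.0 and 19.5 CPM with sEVNORM and at 17.0 and 14.8 CPM with sEVHYP, and did not pass the threshold in either comparison. The same receptor ranged from 12.3 to 18.7 CPM with sEVCTRL.

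**Figure D2:**
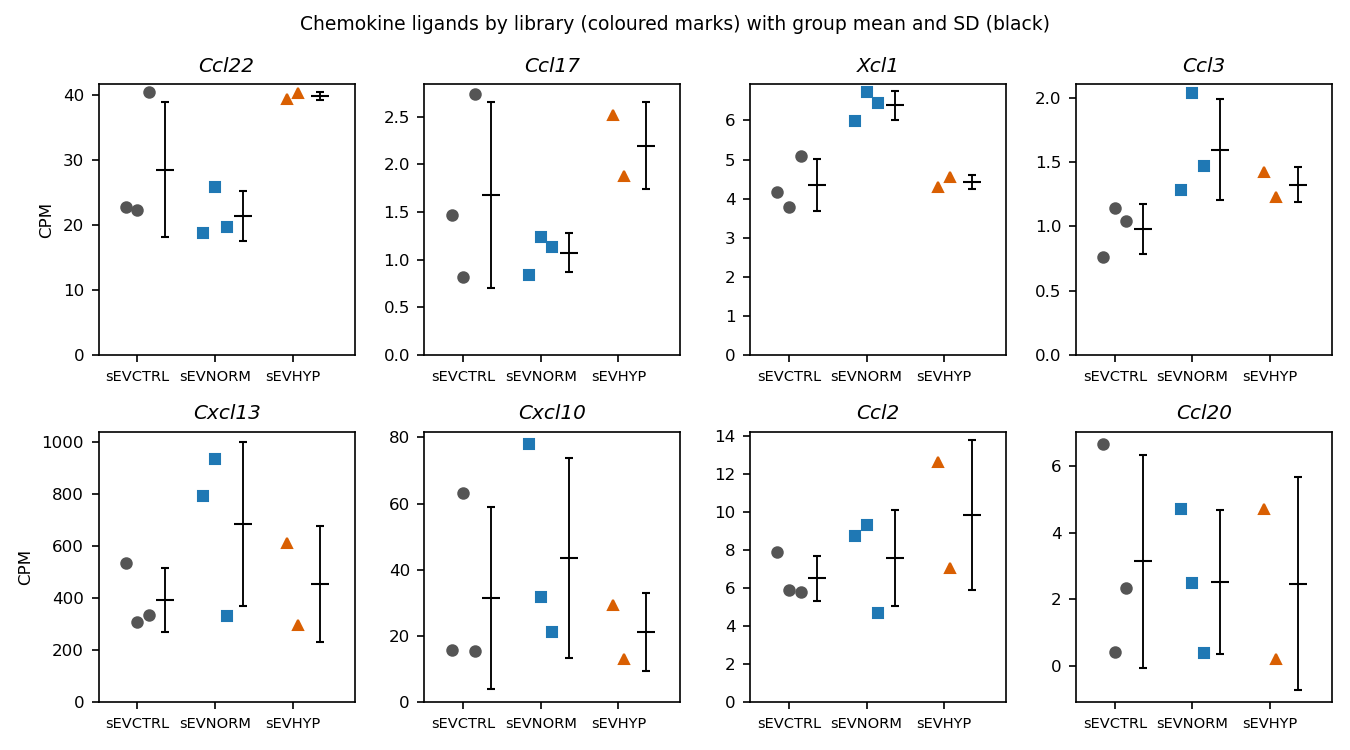
CPM (vertical axis) of 8 chemokine ligands in every library, by treatment; coloured marks are single glands (3 sEVCTRL, 3 sEVNORM, 2 sEVHYP) and black bars the group mean with its SD. For Ccl22 both sEVHYP marks, at 39.5 and 40.4 CPM, lie above the sEVNORM marks; for Xcl1 the 3 sEVNORM marks lie above all others; Cxcl13, Cxcl10, Ccl2 and Ccl20 overlap between groups.

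Per kilobase of exon, the ligand with the highest mean over the 8 glands was Cxcl13, at 450.0 CPM per kilobase. Ccl8 followed with 356, Ccl21a with 193, Ccl6 with 85.2, Ccl5 with 83.1, Ccl12 with 59.1, Ccl19 with 45.9 and Ccl11 with 45.6 CPM per kilobase. The 22 other tested ligands ranged from 42.6 (Cxcl12) to 0.179 (Ccl28) CPM per kilobase. Ligands of adjacent rank mostly overlapped from gland to gland, as Ccl6 and Ccl5 did, with 50.4 to 141 and 56.0 to 106 CPM per kilobase. Cxcl13 and Ccl8, with 259 to 810 and 158 to 521 CPM per kilobase, overlapped as well, and in the sEVCTRL glands the mean of Ccl8 was the higher, at 375 against 341 CPM per kilobase.

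**Figure D3:**
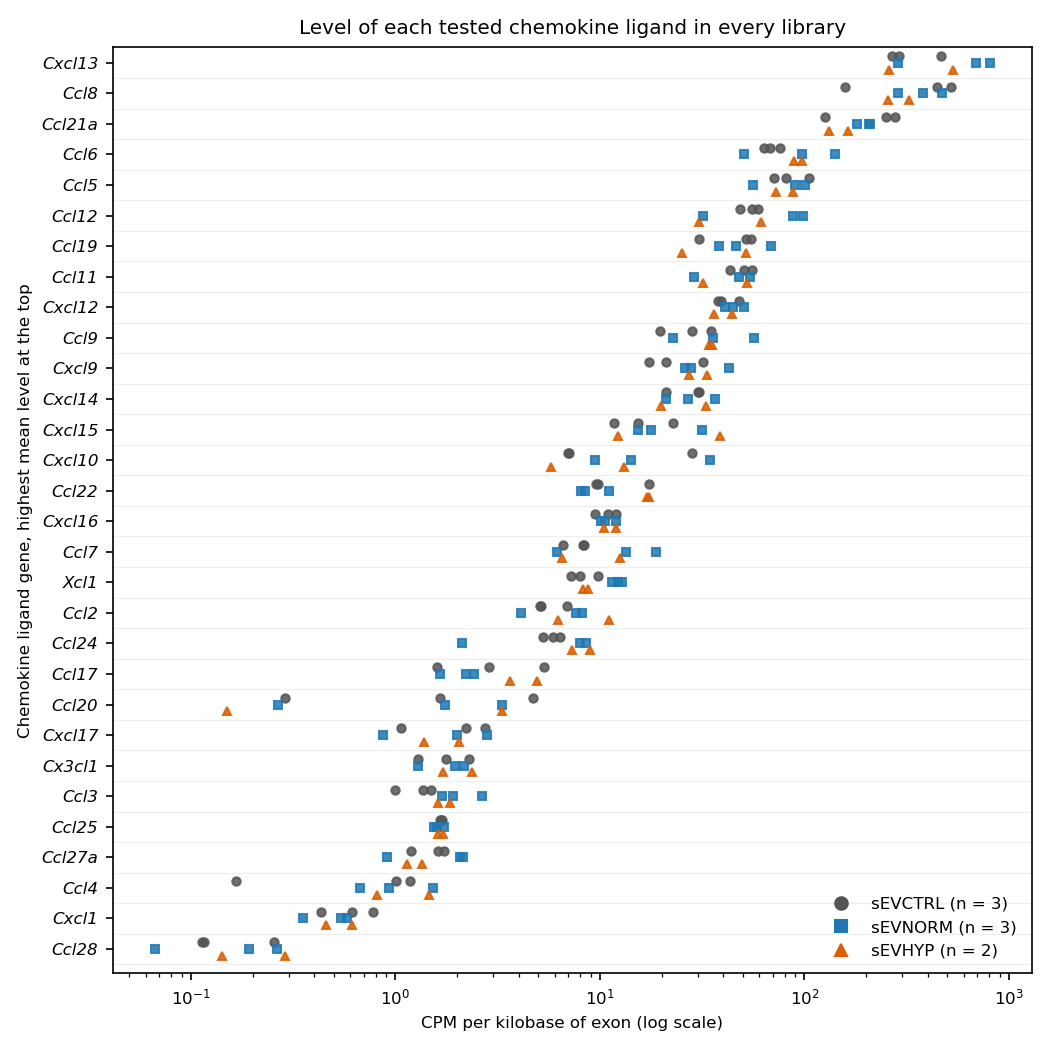
CPM per kilobase of exon (horizontal axis, log scale) of the 30 tested chemokine ligands (vertical axis, ordered by mean level) in each of the 8 libraries, with marks coloured by treatment. Cxcl13, Ccl8 and Ccl21a lie at the top, Ccl28 at the bottom, and Ccl20 has the widest spread between glands.

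Cxcl13, the B cell attractant of lymphoid follicles, took 17.3% to 37.2% of all ligand counts of a library. It stood at 535, 307 and 335 CPM in the sEVCTRL glands, 792, 932 and 329.8 CPM in the sEVNORM glands and 610.2 and 298 CPM in the sEVHYP glands. In each group the values differed widely, with the highest sEVNORM gland close to 3 times the lowest. From sEVCTRL to sEVNORM its log2 fold change was 0.80 (SE 0.41), and the unadjusted P was 0.0842, or 0.0335 with DESeq2 on all 8 libraries. It was 1.13 (unadjusted P of 0.0112) without sEVNORM replicate 3 and 0.55 (unadjusted P of 0.0231) with the B cell marker level in the model. Between sEVHYP and sEVNORM it was -0.59 (SE 0.47), -0.03 with the B cell term and -0.13 with a skeletal muscle term. It was -0.92 (unadjusted P of 0.0445) without sEVNORM replicate 3. Between sEVHYP and sEVCTRL it was 0.21, and 0.52 (unadjusted P of 0.0465) with the B cell term.

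Ccl19 and Ccl21a, ligands of CCR7, are made by stromal cells of lymphoid tissue. Ccl19 stood at 45.1, 26.6 and 47.7 CPM with sEVCTRL, 40.1, 59.3 and 33.0 CPM with sEVNORM and 44.7 and 21.9 CPM with sEVHYP. The lowest glands were sEVHYP replicate 2 and sEVCTRL replicate 2, which were also lowest for B cell and T cell markers. Ccl21a stood at 218, 109 and 240.4 CPM with sEVCTRL, 157, 180.5 and 182.5 CPM with sEVNORM and 143 and 114 CPM with sEVHYP. Both sEVHYP glands were below the sEVNORM glands, and 1 control gland was lower still. The log2 fold change of Ccl21a was -0.43 (SE 0.30) for sEVHYP against sEVNORM and -0.56 (SE 0.30) against sEVCTRL. Without sEVCTRL replicate 2, the lowest control gland, the second was -0.83 (unadjusted P of 0.00146), in a fit that called 1472 of 17701 genes. The second was -0.45 (unadjusted P of 0.213) without sEVCTRL replicate 1 and -0.35 (unadjusted P of 0.292) without sEVCTRL replicate 3. All 3 lymphoid ligands tested had a lower estimate with sEVHYP than with sEVNORM, and 0 passed the threshold.

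Levels of Ccl21a and Ccl19 are uncertain because near-identical copies lie beside them on chromosome 4. Of the 50-base windows of the Ccl21a transcript, 70.5% occur unchanged in Gm13304 and 71.6% in Gm21541, and of those of Ccl19, 59.1% occur in Gm2564, to which 330 to 901 counts per library were assigned. When the copies were summed, the log2 fold change of sEVHYP against sEVNORM was -0.45 for Ccl21a and -0.18 for Ccl19, where the single gene gave -0.40 for Ccl19.

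Markers of lymphoid tissue varied alongside. All 9 B cell markers had a lower estimate with sEVHYP than with sEVNORM and 0 passed the threshold, with a summed level of 799.5 to 1719 CPM with sEVHYP, 1125 to 2748 CPM with sEVNORM and 1114 to 2372 CPM with sEVCTRL. All 10 T cell markers did likewise, at 309 to 539, 443 to 615 and 319 to 578 CPM. Of 6 markers of lymph node stroma and high endothelium, 5 had a lower estimate, and Tnfsf11 and Glycam1 passed the threshold. The summed level of the 4 lymphatic endothelial markers was 53.2 to 60.9 CPM with sEVHYP and 58.3 to 71.5 CPM with sEVNORM. Cxcr5, the Cxcl13 receptor of B cells, ran from 30.4 to 61.0 CPM with sEVHYP and 41.6 to 90.1 CPM with sEVNORM, and Ccr7 from 31.3 to 65.1 and 41.7 to 58.6 CPM.

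**Figure D4:**
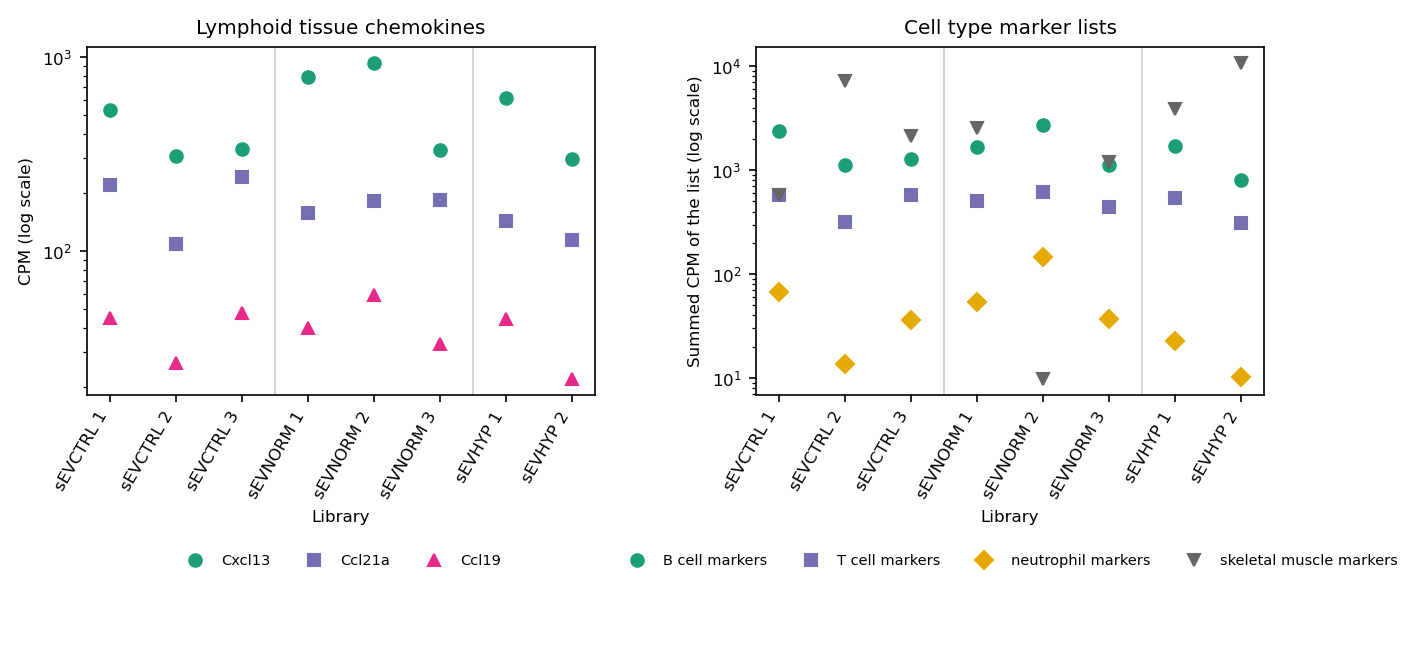
Left, CPM (log scale) of Cxcl13, Ccl21a and Ccl19 in each library; right, summed CPM (log scale) of the B cell, T cell, neutrophil and skeletal muscle marker lists in the same libraries, separated by treatment with grey lines. Ccl19 and the B cell markers are highest in sEVNORM replicate 2 and lowest in sEVHYP replicate 2, where muscle markers are lowest and highest, respectively.

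Among the ligands grouped here under CCR2, a receptor of monocytes, Ccl8 had the highest level. Which receptor each ligand used in these glands was not tested. It stood at 228, 81.0 and 266 CPM with sEVCTRL, 194, 240.7 and 146 CPM with sEVNORM and 166 and 131 CPM with sEVHYP. Ccl12 stood at 31.9, 25.9 and 29.9 CPM with sEVCTRL, 52.7, 47.2 and 17.1 CPM with sEVNORM and 32.8 and 16.4 CPM with sEVHYP. For both genes the ranges of the 3 treatments overlapped, and sEVNORM replicate 3 was apart from the other 2 sEVNORM glands for Ccl12. Without that gland the log2 fold change of Ccl12 was -1.02 (unadjusted P of 0.0106) for sEVHYP against sEVNORM and 0.77 (unadjusted P of 0.0227) for sEVNORM against sEVCTRL, while with all glands it was -0.66 (SE 0.45) and 0.42 (SE 0.39).

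Ccl2, also known as MCP-1, was low, at 99 to 275 counts per library. It stood at 12.6 and 7.07 CPM with sEVHYP, 8.73, 9.31 and 4.68 CPM with sEVNORM and 7.87, 5.88 and 5.80 CPM with sEVCTRL. The highest value was that of sEVHYP replicate 1, and the other sEVHYP gland lay within the range of the other groups. Against sEVCTRL, sEVHYP had a log2 fold change of 0.59 (SE 0.36). It was 0.12 without sEVHYP replicate 1 and 0.94 (unadjusted P of 0.0443) without sEVHYP replicate 2. With the B cell marker level in the model it was 0.79 (unadjusted P of 0.0096), and 0.73 (unadjusted P of 0.0181) for sEVHYP against sEVNORM. Ccl7 ran from 4.92 to 15.1 CPM. All 4 ligands grouped under CCR2 had a higher estimate with sEVNORM than with sEVCTRL, with 0 called. Ccr2 itself was at 67.5 to 69.6 CPM with sEVNORM, above the 47.6 to 63.9 CPM of the sEVCTRL glands, with a log2 fold change of 0.30 (SE 0.17).

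Among the inflammatory CC chemokines of macrophages and T cells, Ccl6 stood at 122, 136 and 114 CPM with sEVCTRL, 252, 90.5 and 175 CPM with sEVNORM and 174 and 160.3 CPM with sEVHYP. Both sEVHYP glands exceeded the control glands, and the sEVNORM glands spanned both. Against sEVCTRL, sEVHYP had a log2 fold change of 0.43 (SE 0.34, unadjusted P of 0.233). Fitted on only the groups compared, the unadjusted P was 0.0487 with edgeR and 0.0442 with DESeq2, and with the skeletal muscle marker level in the model the log2 fold change was 0.18 (unadjusted P of 0.438). For sEVNORM against sEVCTRL it was 0.48 (SE 0.31), 0.79 (unadjusted P of 0.00326) without sEVNORM replicate 2, 0.10 without sEVNORM replicate 1 and 0.67 (unadjusted P of 0.00677) with the muscle term.

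Ccl5, a T cell and natural killer cell product, was even across treatments, at 77.8, 67.9 and 101 CPM with sEVCTRL, 53.7, 96.6 and 86.8 CPM with sEVNORM and 84.9 and 69.3 CPM with sEVHYP. The 95% interval of its log2 fold change for sEVHYP against sEVNORM was -0.64 to 0.57. Ccl3 was low, with 15 to 46 counts per library, at 0.762, 1.14 and 1.04 CPM with sEVCTRL, 1.29, 2.04 and 1.47 CPM with sEVNORM and 1.42 and 1.23 CPM with sEVHYP. Every gland that received sEVs was above the control glands, and the log2 fold change was 0.70 (SE 0.37) for sEVNORM and 0.43 (SE 0.41) for sEVHYP. Ccl9 ran from 60.1 to 172 CPM, with a log2 fold change for sEVNORM against sEVCTRL of 0.47, and 0.68 (unadjusted P of 0.016) with the muscle term. Ccl4 ran from 0.109 to 1.01 CPM.

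The CCR3 ligand Ccl11, or eotaxin, which attracts eosinophils, stood at 47.0, 54.5 and 60.2 CPM with sEVCTRL, 51.8, 31.2 and 58.4 CPM with sEVNORM and 34.6 and 56.7 CPM with sEVHYP. Against sEVCTRL, sEVHYP had a log2 fold change of -0.24 for Ccl11, and of -0.49 (unadjusted P of 0.0248) with the B cell term. Ccl24, the second eotaxin, stood at 6.81, 8.30 and 7.66 CPM with sEVCTRL, 10.4, 2.75 and 11.0 CPM with sEVNORM and 11.6 and 9.42 CPM with sEVHYP. For Ccl24 the sEVHYP glands exceeded the controls without overlap (log2 fold change 0.47, SE 0.48), and it was lowest in sEVNORM replicate 2, the gland with the least muscle RNA. With the skeletal muscle marker level in the model the log2 fold change was 0.09.

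The homeostatic ligands of stroma and epithelium had 0 calls in the 3 comparisons. Cxcl12, the CXCR4 ligand that retains hematopoietic and immune cells, ran from 297 to 414 CPM, and its log2 fold change was -0.17 (SE 0.19) for sEVHYP against sEVNORM and -0.04 (SE 0.19) against sEVCTRL. Ccl25 ran from 11.5 to 12.8 CPM, and the interval of its log2 fold change for sEVHYP against sEVCTRL was -0.40 to 0.39. Ccl27a, an epithelial attractant of T cells bearing CCR10, was low. It stood at 2.84, 3.83 and 4.10 CPM with sEVCTRL, 5.11, 2.17 and 4.92 CPM with sEVNORM and 2.70 and 3.21 CPM with sEVHYP. The sEVHYP glands lay inside the range of the sEVNORM glands, 1 of them was below every control gland, and the log2 fold change was -0.46 (SE 0.40) against sEVNORM and -0.28 (SE 0.40) against sEVCTRL. It was -0.97 (unadjusted P of 0.0181) against sEVNORM with the skeletal muscle marker level in the model, and -0.76 (unadjusted P of 0.0482) without sEVNORM replicate 2. Of the other members, Cxcl14 ran from 36.3 to 66.4 CPM, Cxcl15 from 24.9 to 82.1 CPM, Cxcl17 from 0.665 to 2.13 CPM and Ccl28 from 0.322 to 1.39 CPM.

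Cxcl9 and Cxcl10, the interferon-induced attractants of CXCR3-bearing T cells, lie side by side on chromosome 5 but spread differently. These genes, and Ccl20 and Cxcl16 after them, are described here because of their spread, which was seen in their values. Cxcl10 stood at 15.9, 63.2 and 15.6 CPM with sEVCTRL, 78.03, 31.8 and 21.3 CPM with sEVNORM and 29.5 and 13.0 CPM with sEVHYP. Cxcl9 ran from 52.4 to 129 CPM. For sEVNORM against sEVCTRL its log2 fold change was 0.46, and it was 0.56 (unadjusted P of 0.0471) with the B cell term and 0.67 (unadjusted P of 0.0195) with the muscle term. A single gland in each of the sEVCTRL and sEVNORM groups was high for both genes. The log2 fold change of Cxcl10 for sEVHYP against sEVNORM was -1.04 with an SE of 0.75, which leaves an interval of -2.72 to 0.65. Ccl20, the CCR6 ligand of mucosal epithelium, spread most, from 0.214 to 6.65 CPM (4 to 131 counts), with a high and a low gland in every group. Cxcl16, the CXCR6 ligand, spread least of these, from 28.6 to 36.3 CPM.

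Among the ligands that met the rule, the 4 neutrophil attractants grouped here under CXCR2, not including Cxcl15, were near or under detection. Cxcl1 had 14 to 32 counts per library (0.662 to 1.46 CPM) and was the only one tested. Cxcl2 had 3 to 15 counts, Cxcl5 0 to 22 and Cxcl3 0 to 5. The other ligands too low to test were Ccl1, with 1 to 16 counts, and Ccl21b, Ccl26 and Ccl27b, with 0 counts in every library. Of the 50-base windows of the Ccl21a transcript, 30.8% also occur in Ccl21b. The 0 of Ccl21b can therefore depend on how shared reads were assigned, which was not tested. A count of 0 allows up to 3 counts, or 0.121 to 0.164 CPM depending on the library, and this limit covers counting error only. Neutrophil markers were themselves at low levels. Of 7 tested, all had a lower estimate with sEVHYP than with sEVNORM and 5 passed the threshold. Against sEVCTRL, all 7 had a higher estimate with sEVNORM, with 3 passing, and a lower one with sEVHYP, with 0 passing. The summed level of the list was 10.2 and 22.6 CPM with sEVHYP, 37.0 to 145 CPM with sEVNORM and 13.5 to 66.9 CPM with sEVCTRL. Camp was at 0 counts in both sEVHYP glands. Cxcr2, which neutrophils and some B cells express, was at 9.21 and 16.5 CPM with sEVHYP and 12.3 to 33.9 CPM with sEVNORM, and did not pass the threshold.

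On the receptor side, 16 of 19 chemokine receptor genes were tested. With sEVHYP against sEVNORM, 4 had a higher and 12 a lower estimate, and 1 was called in each direction. Cxcr4, the receptor of Cxcl12, stood at 156 and 84.8 CPM with sEVHYP, 35.4, 74.3 and 54.8 CPM with sEVNORM and 98.7, 78.8 and 55.3 CPM with sEVCTRL. Both sEVHYP glands were above the sEVNORM glands, and the log2 fold change was 1.14 (SE 0.36, unadjusted P of 0.0117), beside -0.17 for the ligand. Ccr1, a receptor of Ccl3, Ccl5, Ccl6 and Ccl9 on macrophages and neutrophils, stood at 9.39 and 8.30 CPM with sEVHYP, 21.8, 10.2 and 17.6 CPM with sEVNORM and 11.9, 9.30 and 7.88 CPM with sEVCTRL. It was lower with sEVHYP than with sEVNORM, with a log2 fold change of -0.90 (SE 0.33, unadjusted P of 0.0227), and higher with sEVNORM than with sEVCTRL, by 0.77 (SE 0.29, unadjusted P of 0.0255). These 4 ligands had log2 fold changes of -0.04 to -0.27 in the first of these comparisons and 0.70 to -0.06 in the second. Between sEVHYP and sEVCTRL, 7 receptors had a higher and 9 a lower estimate, and 0 were called.

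Atypical receptors, which remove chemokines without signaling to migration, did not pass the threshold in any comparison (5 tested). The list for chemokine processing and anchoring held 7 tested genes, among them the platelet chemokines Pf4 and Ppbp. Sdc1 rose with sEVHYP against sEVCTRL and Sdc4 with sEVNORM against sEVCTRL, and both encode syndecans whose heparan sulfate chains bind chemokines. The platelet chemokine Ppbp was higher with sEVNORM than with sEVCTRL (log2 fold change 1.17, SE 0.40, unadjusted P of 0.0168) and lower with sEVHYP than with sEVNORM (-1.44, SE 0.46, unadjusted P of 0.0125). Of 17 genes of the NF-kB response, a pathway inducing many chemokines, 7 had a higher and 10 a lower estimate with sEVHYP than with sEVCTRL. Against sEVNORM, 6 had a higher and 11 a lower estimate. Sod2 passed the threshold as higher with sEVHYP in both comparisons, and Vcam1 as lower with sEVHYP than with sEVNORM. Of 15 genes of the interferon gamma response, Igtp was higher with sEVHYP than with sEVCTRL, and 0 passed the threshold between sEVHYP and sEVNORM. With sEVNORM against sEVCTRL, 14 of these genes had a higher and 1 a lower estimate, and 1 was called.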

How the data were processed

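Poly(A) RNA from 8 whole mammary glands was sequenced after library preparation with the Lexogen Sense mRNA-Seq kit. The authors used STAR with mm10 (GRCm38) and RSEM 1.2.12 with the genes of Ensembl release 89. What they deposited are counts per gene, as whole numbers that carry no scaling. How the estimates became whole numbers is not stated in the sources used here. Groups were taken from the treatment labels. Replicates are separate libraries, and their p-values measure the spread between these glands.

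Symbols, positions and exon lengths came from GENCODE M21 (GRCm38), which gave 51596 of 51789 genes a symbol. The rest held 0.0389% of the counts. One model of the 3 groups was fitted to all genes (edgeR 4.0.16, R 4.3.3) with TMM factors and the two-sided quasi-likelihood F-test, which had 5 residual and 4.08 prior degrees of freedom. Genes were kept by filterByExpr (minimum count 10), and P was adjusted by Benjamini-Hochberg over the 17858 kept. Members not passing the filter are called too low. The fit was tested on simulated data. Alternatives were DESeq2 1.42.0 on all libraries or on the groups compared, DESeq2 size factors, edgeR on the groups compared, other filters, a replicate block, a B cell covariate and each library left out. A muscle covariate and summed copies were added after seeing the data. Intervals are 95%.

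The members, gene lists and tests were chosen with earlier results of these data known. Per-library values are given for ligands with an unadjusted P under 0.05 in any comparison, the 8 highest per kilobase, up to 3 per comparison without overlap and with the largest changes, and Ccl2 and Ccl27a. Other ligands and list genes were named with their values already known. The luminal cell libraries of the study were not used here. Values of some list genes are not reported here.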

Additional observations from a re-analysis of the deposited data

How the results depend on the processing

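The calls among ligands rested on few libraries. For sEVHYP against sEVCTRL, 0 ligands were called in the reported fit, 1 with DESeq2 or edgeR on only the groups compared, 3 with the B cell covariate and 0 to 3 when a library was left out. For sEVHYP against sEVNORM, 1 was called, 3 and 4 with DESeq2 and edgeR on only the groups compared, 2 with the replicate block, the B cell covariate or the muscle covariate, and 1 to 3 when a library was left out. For sEVNORM against sEVCTRL, 1 was called, 2 with DESeq2 on all libraries or with no filter, 0 with edgeR on only the groups compared or with the replicate block, 3 with the B cell or the muscle covariate, and 0 to 4 when a library was left out, the most without sEVCTRL replicate 2. Calls over all genes moved with the setting too. For sEVHYP against sEVCTRL they went from 438 of 17858 to 883 with the B cell covariate. Without sEVCTRL replicate 2 they were 1472 of 17701. For sEVHYP against sEVNORM they went from 706 to 1056 of 17403 with edgeR and 1195 of 26293 with DESeq2 on the groups compared. For sEVNORM against sEVCTRL they went from 290 to 456 with the B cell covariate and 1018 without sEVCTRL replicate 2. The cause was not tested. Correlations of same-numbered deviations ran from -0.416 to 0.369. With so few glands per group they cannot show whether the replicate numbers mark a shared batch or litter. No label says that they do, and the replicate block rests on the shared number alone. The 3 medians moved by less than 0.155, the SD over libraries of the median ligand deviation on the log2 scale, in all 18 alternatives, but that of sEVHYP against sEVNORM changed sign, from -0.066 to 0.026, without sEVNORM replicate 1. With the muscle covariate, the log2 fold change of sEVHYP against sEVNORM turned for Ccl19 (0.083), Ccl8 (0.078) and Ccl24 (-0.24). When a library was left out, it ran from -1.01 to 0.015 for Ccl19, from -0.10 to 0.73 for Ccl2 and from -0.025 to 0.68 for Ccl24, turning without sEVHYP replicate 2, sEVHYP replicate 1 and sEVNORM replicate 2, respectively. With 1 sEVHYP library left out, the other was assumed to vary like the remaining groups. Ligands under 50 counts in a library, such as Ccl17, Ccl3 and Ccl4, are limited by depth.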
